A study of Mus musculus with 6 samples.

Results

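Cardiac allografts from mice given ABH4 were set directly against cardiac allografts from mice given NIL, which uses 2 of the 6 arrays of the series and does without the untreated allograft as a reference. Each of the 6 arrays was the only one of its group, so no spread between grafts can be estimated, and every difference below is between a pair of arrays with no test and no p-value. The dose of ABH4, 4-amino tetrahydrobiopterin, was 50 mg/kg every 8 h, and that of NIL, N-imino ethyl-L-lysine, 5 mg/kg every 8 h. The doses differ by weight, so compound and dose cannot be told apart. The other 4 arrays, used here only as values beside the comparison, were an untreated allograft, an allograft with BH4 (tetrahydrobiopterin, 50 mg/kg every 8 h), an allograft with CsA (cyclosporin A, 15 mg/kg every 24 h) and an untreated syngraft. Mouse strain, age, the day of graft removal and whether RNA of several grafts was pooled are not given in the sources used here.

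Nitric oxide synthases make nitric oxide and citrulline from arginine, and they need tetrahydrobiopterin as a cofactor. ABH4 is a pterin that takes the place of this cofactor, whereas NIL is an amino acid derivative that binds where arginine binds and acts mainly on the inducible synthase, Nos2, which activated macrophages and other cells make during graft rejection. Set side by side, the pair compares grafts of mice given an inhibitor of the cofactor site and an inhibitor of the substrate site. The arrays do not measure synthase activity or nitric oxide.

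Signals are on the array scale after every array was brought to a common median of 83.3, with a floor of 34.8 below which values were not ordered. A fold against an array at the floor is a lower bound and is written "at least". Over 12393 genes the median log2 difference was 0 and the SD was 0.35. The Pearson correlation of the pair across genes was 0.980, the second highest of the 15 pairs of arrays, after ABH4 with the untreated allograft (0.987). Genes are not independent replicates, and whether the arrays were processed and scanned together is not given in the sources used here. The comparison had 89 genes at least 2-fold higher with ABH4 (0.718% of the genes) and 132 at least 2-fold lower (1.07%), of which 11 and 8 were at least 3-fold apart. At 1.5-fold the counts were 535 higher (4.32%) and 672 lower (5.42%). Over all 22626 probe sets other than controls, 233 were at least 2-fold higher (1.03%) and 211 at least 2-fold lower (0.933%).

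The 2 directions differed in signal, and by how much depended on the scaling. Among the 2908 genes whose brighter array lay above 4 times the common median, 16 were at least 2-fold higher with ABH4 and 3 lower. These counts were 9 and 4 without rescaling and 9 and 5 after quantile normalization. Among the 2415 genes whose brighter array lay at or below the median, 12 were higher and 48 lower. The low end of the arrays differed too: the 10th percentile of the deposited signal was 5.6 on the ABH4 array and 7.2 on the NIL array, and 26.2% of genes were at the floor with ABH4 against 23.1% with NIL. The BH4 and untreated allograft arrays (5.7 and 5.4) had low ends like ABH4, and the CsA and syngraft arrays (7.7 and 7.6) like NIL. The part of this difference in the counts was not tested. The split moved with the scaling: without the median rescaling 63 genes were higher and 171 lower, so that 26.9% of the genes past 2-fold were higher with ABH4 against 40.3% after rescaling, and with the floor at the 50th percentile 37 were higher and 10 lower. Genes above 4 times the median had a median difference of 0.11 after rescaling, 0.00 without it and -0.02 after quantile normalization, so differences of about 0.1 in bright genes depend on the scaling.

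**Figure D1:**
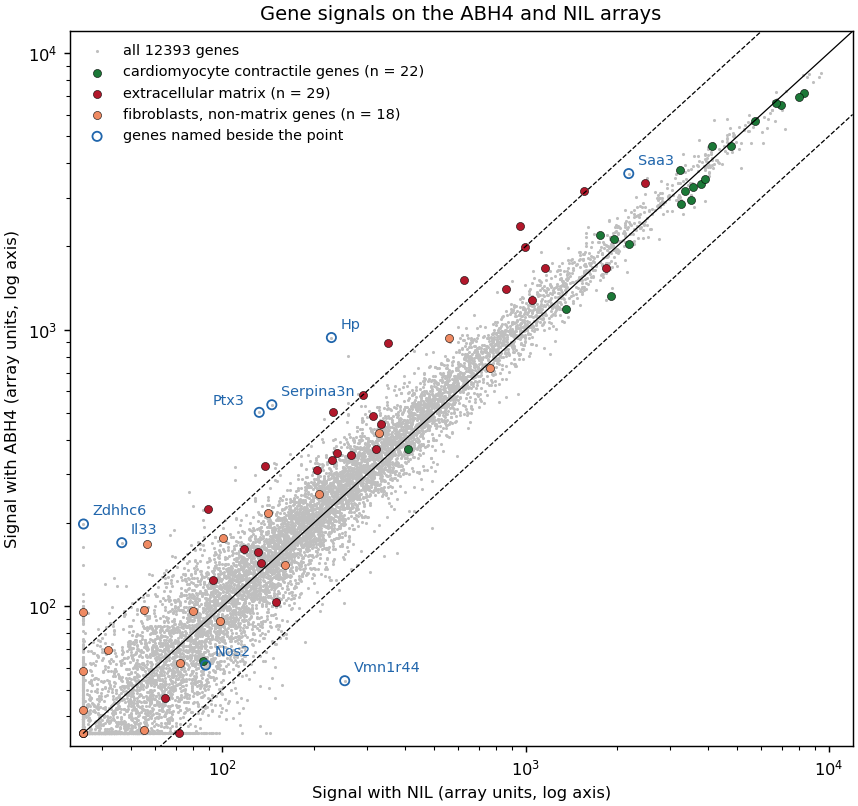
Signal of each of 12393 genes with NIL (horizontal, log axis) against ABH4 (vertical, log axis), 1 array each, with the line of equal signal and dashed lines at 2-fold. Matrix genes in dark red lie mostly above the line (24 of 29 above 0), Hp, Ptx3 and Serpina3n lie above the upper dashed line, and 17 of 22 contractile genes of heart muscle in green lie slightly below the line of equal signal.

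**Figure D2:**
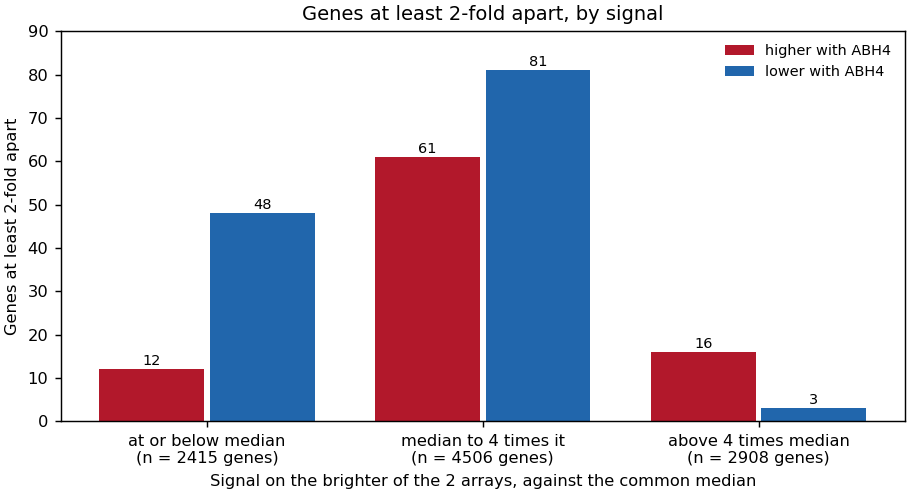
Number of genes at least 2-fold higher (red) or lower (blue) with ABH4 than with NIL, in 3 classes of signal on the brighter of the pair of arrays. Lower genes prevail in the dimmest class (48 against 12) and higher genes in the brightest (16 against 3 as plotted, 9 against 4 without rescaling and 9 against 5 after quantile normalization).

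Among the genes at least 2-fold higher with ABH4 were matrix genes and the genes Hp, Ptx3 and Serpina3n, described below. The start regions of 4 of them, for which the RefSeq table (GRCm38.p6) held 1 promoter each, are shown because Col1a2 and Dpt were among the furthest apart of the matrix list and Serpina3n and Ptx3 among the furthest apart of all genes. Each is the 250 bases before the transcription start on the plus strand, at chr6:4505368-4505617 for Col1a2, chr1:164796413-164796662 for Dpt, chr12:104406458-104406707 for Serpina3n and chr3:66219637-66219886 for Ptx3. Capitals mark matches, on either strand, to 5 short motifs. The letters searched were TATAAA for the box of that kind, CCAAT for the box named after it, TTCNNNGAA for STAT factors, TTGCNNAA for C/EBP factors and GGGCGG for the GC box.
Col1a2: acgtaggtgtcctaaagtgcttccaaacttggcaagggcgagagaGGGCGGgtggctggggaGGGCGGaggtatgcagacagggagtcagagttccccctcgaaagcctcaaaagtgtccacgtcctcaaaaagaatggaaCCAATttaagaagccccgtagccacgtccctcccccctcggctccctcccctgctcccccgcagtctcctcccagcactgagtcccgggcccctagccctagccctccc
Dpt: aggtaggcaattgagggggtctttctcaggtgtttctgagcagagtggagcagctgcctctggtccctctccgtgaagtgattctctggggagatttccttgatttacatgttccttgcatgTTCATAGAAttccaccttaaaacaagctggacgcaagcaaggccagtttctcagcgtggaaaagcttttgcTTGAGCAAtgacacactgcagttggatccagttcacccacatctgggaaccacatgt
Serpina3n: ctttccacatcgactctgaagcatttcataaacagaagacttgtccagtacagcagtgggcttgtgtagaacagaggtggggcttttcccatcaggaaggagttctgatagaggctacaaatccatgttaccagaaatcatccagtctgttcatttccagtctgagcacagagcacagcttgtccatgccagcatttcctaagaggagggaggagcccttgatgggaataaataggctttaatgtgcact
Ptx3: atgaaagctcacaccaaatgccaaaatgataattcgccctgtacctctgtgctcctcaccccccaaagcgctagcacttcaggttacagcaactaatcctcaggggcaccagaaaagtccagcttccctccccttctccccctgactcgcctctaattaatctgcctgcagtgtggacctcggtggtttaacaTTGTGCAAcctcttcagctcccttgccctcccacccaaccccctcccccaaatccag

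Col1a2 had a CCAAT match beginning 109 bases before the start and GC boxes at 205 and 188. Dpt had a STAT match at 128 and a C/EBP match at 57, Ptx3 a C/EBP match at 57, and Serpina3n none of the 5. No match overlapped another. Promoters were found for 63 of the 89 genes higher with ABH4 (85 promoters) and 102 of the 132 lower (133 promoters). The CCAAT letters were in 34.1% of the first and 30.8% of the second, against 33.8% of all 32851 promoters in the table. The STAT letters were in 8.24% and 10.5%, against 7.02% of all, the C/EBP letters in 11.8% and 10.5% against 9.56%, the TATAAA letters in 11.8% and 6.02% against 12.4%, and the GC box in 50.6% and 41.4% against 32.7%. Over the 12566 promoters of all genes compared, the GC box was in 51.3%, CCAAT in 34.7%, the C/EBP letters in 8.40%, the STAT letters in 6.0% and TATAAA in 8.81%, so the TATAAA share of the higher genes lay below the share of the whole table and above that of the compared genes. These are matches of letters only.

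The genes of the drugs' targets were close: none of the 7 measured genes of the synthases and their regulators was 1.5-fold apart. Nos2 had a signal of 61.3 with ABH4, 88.0 with NIL, 73.2 in the untreated allograft and 54.7 with BH4, and it was at the floor with CsA and in the syngraft. The NIL array thus held the highest Nos2 signal of the 6, 1.44-fold above ABH4, and all 6 values lay near or below the common median. Nos3, the endothelial synthase, was lowest of all arrays with ABH4, at 174 against 218 with NIL and 189.7 to 246 elsewhere. Nos1, the neuronal synthase, was 47.9 and 57.9. Of proteins that bind or regulate these enzymes, Cav1, the caveolin that holds Nos3 inactive, was 549 and 583, Nosip was 243 and 237, the dynein light chain Dynll1 was 2439 and 2136, and Ddah2, which clears methylated arginine inhibitors, was 139 and 124. The median of the list was -0.09, and it stayed between -0.19 and 0 under every alternative.

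Genes that make and recycle tetrahydrobiopterin were close on the pair of arrays although 1 of the drugs is an analog of it. Gch1, the first and rate-limiting enzyme of its synthesis, was 263 with ABH4 and 249 with NIL, beside 279 in the untreated allograft and 99.2 in the syngraft. The next enzymes of the route were slightly lower with ABH4, Pts at 99.7 and 117 and Spr at 129 and 149. The recycling enzyme Qdpr was 611 and 522. The dehydratases Pcbd1 (39.4 and 43.4) and Pcbd2 (193 and 166) were also near each other. Only Cbr1, a carbonyl reductase that can act in the salvage of the cofactor, was past 1.5-fold, at 114 with ABH4 and 75.5 with NIL. It lay barely past that fold, and without rescaling (109.8 and 78.1) it fell short of it. The list had 1 of 7 members at least 1.5-fold higher and none lower, beside 4.32% and 5.42% of all genes, and a median of 0.08 that fell to -0.02 without the rescaling. Of the enzymes outside the synthases that use the cofactor, Th was 53.8 and 57.0, and Tph1 was at the floor with ABH4 and 37.9 with NIL.

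The enzymes that handle arginine, the substrate whose site NIL occupies, held 1 gene past 2-fold. Asl, argininosuccinate lyase, which rebuilds arginine from the citrulline that the synthases release, was 132 with ABH4 and 64.2 with NIL, 2.05-fold higher. The untreated allograft (121) and BH4 (114) lay near ABH4, and NIL was the lowest of the 6 arrays. Arg1, the arginase of alternatively activated macrophages, which competes for arginine, was high on both at 1009 and 1094, against 864 untreated, 324 with CsA and the floor in the syngraft. Arg2 was 61.7 and 76.2, and both exceeded every other array. The same held for the cationic amino acid transporter Slc7a2, at 119.9 and 103 with 42.0 to 69.4 elsewhere, whereas the transporter Slc7a1 was 58.4 and 63.8. Gatm, the first enzyme of creatine synthesis from arginine, was 579 and 423, and Gamt, the second, was at the floor and 36.7.

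Among genes of ornithine and polyamine metabolism, Odc1, Srm, Sat1, Oat and Azin1 were between 1.05-fold and 1.16-fold higher with ABH4. Odc1, ornithine decarboxylase, was 1221 and 1051, and Srm, which makes spermidine, was 523 and 450.0. Sat1 was 729.7 and 635, Oat was 628 and 601, and the Odc1 regulator Azin1 was 679 and 647. Without rescaling Oat (607 and 621) and Azin1 (656 and 669) were slightly lower with ABH4. Agmat was lower with ABH4 at 45.8 and 64.3. In all, 1 of the 13 arginine and polyamine genes was at least 1.5-fold higher and none lower, beside 4.32% and 5.42% of all genes. The median of 0.07 was -0.03 without rescaling.

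Cyclic GMP is the second messenger through which nitric oxide relaxes vessels, and 7 of its 13 measured genes were lower with ABH4, 1 was higher and 5 were at the floor on both arrays (Prkg1, Pde1c, Npr1, Npr3 and Mrvi1). The subunits of the nitric oxide receptor, soluble guanylate cyclase, were Gucy1a1 at 48.3 and 63.7 and Gucy1b1 at 75.6 and 90.6. Among the phosphodiesterases, Pde1a was at the floor with ABH4 and 52.7 with NIL, at least 1.52-fold lower, Pde3a was 46.8 and 68.0, and Pde2a was 47.3 and 53.0. The kinase Prkg2 was at the floor and 48.5. For 5 of the 7 both signals lay below the common median, where lower values prevailed with ABH4 over all genes. Npr2, a natriuretic peptide receptor, was 117 and 157, and Vasp, a substrate of the kinases, was 895 and 819.9.

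**Figure D3:**
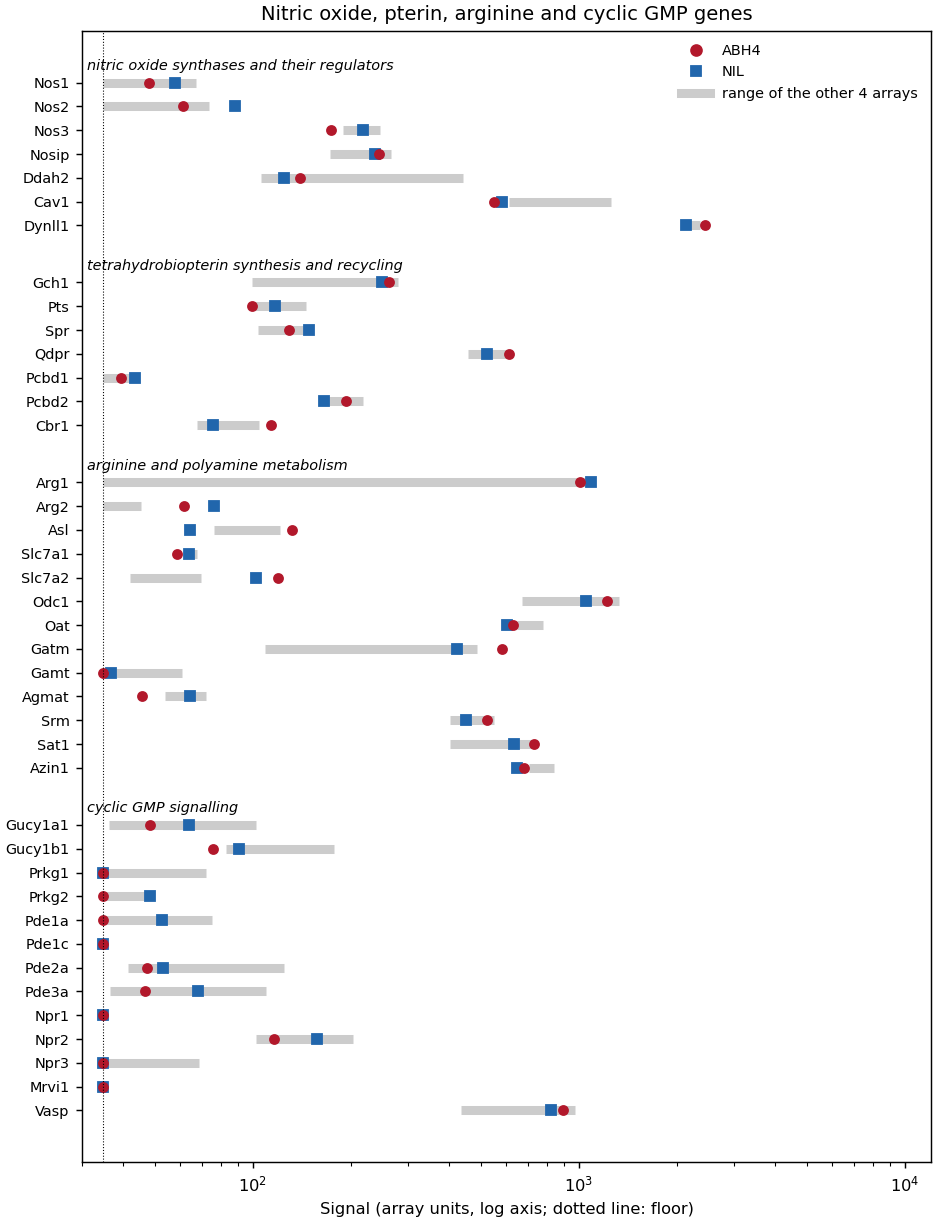
Signal (log axis) of each measured gene of 4 lists with ABH4 (red circles) and NIL (blue squares), 1 array each, over the range of the other 4 arrays (grey bars). The pair of symbols lies close for most genes, Asl (132 and 64.2) is the widest apart, and both lie above the grey bar for Arg2 and Slc7a2.

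Genes of the extracellular matrix had the highest median of the 47 gene lists at the settings used here, though not under every alternative. Of 29 measured, 12 were at least 1.5-fold higher with ABH4 and 1 at least 1.5-fold lower, beside 4.32% and 5.42% of all genes, and the median difference was 0.54 beside 0 over all genes. It stayed between 0.42 and 0.57 under every alternative, while with the floor at the 10th percentile the fibroblast list described below had the higher median, at 0.68. In a bulk graft, fewer cells of a type and less RNA per cell cannot be told apart.

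Col1a2, a chain of type I collagen, the main fibre of scar, had a signal of 2363 with ABH4, 958 with NIL, 1003 in the untreated allograft, 4960.4 with BH4, 5643 with CsA and 7507 in the syngraft. NIL and the untreated allograft lay together at the bottom, ABH4 lay 2.47-fold above NIL, and the other 3 arrays lay above ABH4. The partner chain Col1a1 had the same order of arrays, at 1513 and 626 for the pair, 680.3 untreated and 3877 to 5537 on the rest. Mgp, a matrix protein that prevents calcification, was 899 and 351, 2.56-fold higher, with 318 in the untreated allograft and 1841, 4696 and 6774 on the other 3. Dpt, dermatopontin, which binds collagen and decorin, was 225 and 89.5, again with the untreated allograft (83.5) next to NIL.

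Beyond the genes that the naming rule picked, and chosen after their values were seen, Col3a1 was 2.02-fold higher with ABH4 (3164 and 1565), Lum 2.34-fold (322 and 138) and Postn, which marks activated fibroblasts, 2.19-fold (506 and 231). Of the 12 matrix genes at least 1.5-fold higher, the untreated allograft was nearer NIL in 11, and it lay above ABH4 in 0. CsA lay above ABH4 in 12 of the 12, and BH4 and the syngraft in 11 each. These 12 were picked as higher with ABH4. Over all 29 matrix genes the untreated allograft was nearer NIL in 23 and above ABH4 in 3, and CsA lay above ABH4 in 29. Another probe set could be compared for 6 of the 12, and none of these 6 differed in sign. On the log2 scale the second probe sets of Col1a2, Col1a1 and Col3a1 gave 1.45, 1.03 and 1.26, and those of Col5a2, Thbs1 and Fn1 gave the smaller values 0.48, 0.30 and 0.11. The 1 gene that was lower was Col12a1, at the floor with ABH4 and 72.0 with NIL, at least 2.07-fold.

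Of 17 genes that process the matrix, 4 were at least 1.5-fold higher with ABH4 and 0 lower, beside 4.32% and 5.42% of all genes. In all 10 lay above 0 and 7 below, and the median of 0.16 was 0.06 without rescaling and 0.07 after quantile normalization. Mmp2, the gelatinase of fibroblasts, was 189 and 69.3, 2.73-fold higher, with 46.6 in the untreated allograft and 494 to 694 on the other 3, and its other probe set gave 0.49 on the log2 scale. Mmp3, stromelysin, was 111 and 59.7, and Loxl1, a cross-linking oxidase, was 349.9 and 207. Mmp23, also among the 10 largest differences, was 127 and 43.9.

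Fibroblast genes that are no part of the matrix also differed. Of 18 measured, 8 were at least 1.5-fold higher with ABH4 and 1 lower, beside 4.32% and 5.42% of all genes. The median of 0.33 depended on the floor, at 0.68 with the floor at the 10th percentile and 0.10 with it at the 50th. Pdgfra, the growth factor receptor that defines fibroblasts, was 95.1 with ABH4 and at the floor with NIL and in the untreated allograft, at least 2.74-fold higher, and it was 186 to 310.0 on the other arrays. The secreted Wnt antagonists Sfrp1 (168 and 56.4) and Sfrp2 (97.3 and 54.9) were 2.98-fold and 1.77-fold higher, but the other 3 probe sets of Sfrp1 gave 0.09 to 1.41 on the log2 scale. The untreated allograft was nearer NIL in 7 of the 8, and in 13 of all 18. Other probe sets could be compared for 6 of the 8, and 2 of these 12 probe sets were of opposite sign. Fap, a protease of activated fibroblasts, went the other way at 35.8 and 55.2. Of the whole fibroblast list, 12 of 18 lay above 0 and 5 below, and the part of these markers in the matrix result was not tested.

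Lists of other mesenchymal and vessel cells had no member past 1.5-fold. Of 13 smooth muscle genes the median was 0, Acta2 being 1416 and 1926 and Rgs5, a pericyte gene, 297 and 209.9. Of 18 endothelial genes the median was -0.09. Tek was 71.8 and 52.2, and Cldn5, a tight junction protein, was 152 and 204. Lyve1, a marker of lymphatic endothelium and of some resident macrophages, was among the 10 largest differences, at 121 and 41.0 with the untreated allograft between them at 64.5, and its other probe set gave 0.41 on the log2 scale.

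**Figure D4:**
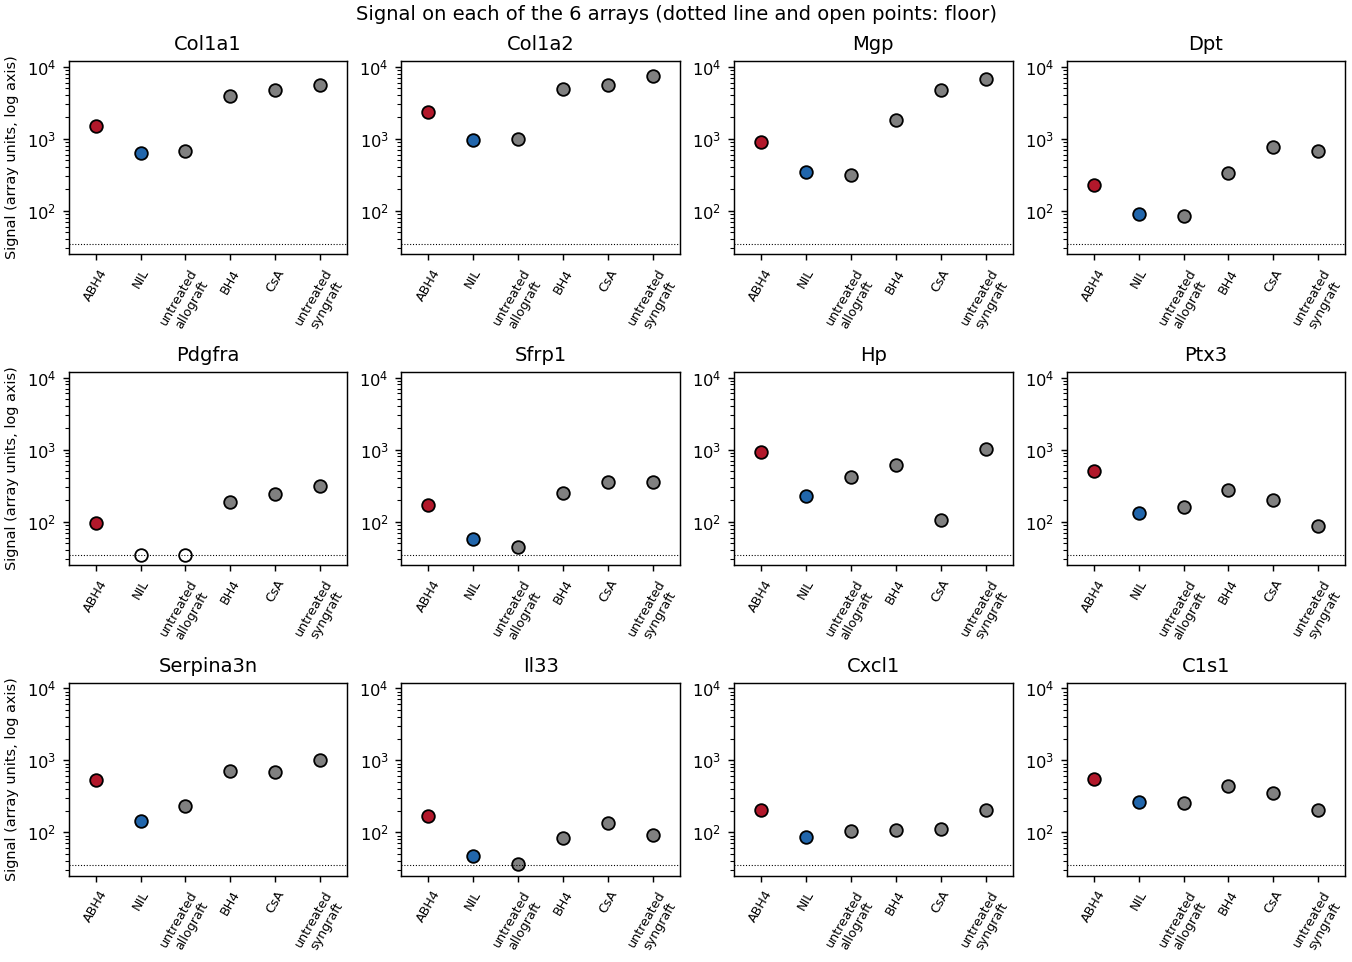
Signal (log axis) of 12 genes on each of the 6 arrays, with ABH4 in red, NIL in blue and the rest in grey. In the first 6 panels (matrix and fibroblast genes) NIL and the untreated allograft lie together below ABH4, and BH4, CsA and the syngraft lie above it. In the others the order varies, and Ptx3, Il33 and C1s1 are highest with ABH4. Cxcl1 is nearly level with ABH4 and in the syngraft (206 and 202), and without rescaling the syngraft is higher (199 and 215).

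The 3 largest differences toward ABH4 with both arrays above the floor and at least 1 above the common median were Hp, Ptx3 and Serpina3n, none of which is in any of the 47 lists. Hp, haptoglobin, a plasma protein that binds free hemoglobin, had a signal of 937 with ABH4, 229 with NIL, 417 in the untreated allograft, 601 with BH4, 104 with CsA and 1007 in the syngraft. ABH4 was 4.10-fold above NIL and close to the syngraft, and the untreated allograft lay between the pair. Ptx3, a pentraxin of stromal and myeloid cells that opsonizes microbes, was 503 with ABH4, 132 with NIL and 87.6 to 270.4 on the others, so that ABH4 stood above all of them. Serpina3n, a protease inhibitor, was 536 and 145, 3.68-fold higher, and here NIL was the lowest of the 6 arrays. None of the 3 had another probe set that could be compared.

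Of 15 neutrophil and acute-phase markers, 5 were at least 1.5-fold higher with ABH4 and 4 lower, beside 4.32% and 5.42% of all genes. The median was 0. Saa3, the serum amyloid of inflamed tissue, was 3669 and 2191 with 2476 untreated, the decoy receptor Il1r2 was 158 and 94.2, and the gelatinase Mmp9 was 109 and 66.2. Against these, the granule proteins Ltf (51.7 and 133), Ngp (81.5 and 142) and Mpo (58.9 and 92.9) were lower with ABH4. Each of these granule proteins lay below the common median of 83.3 with ABH4 and above it with NIL. Granule proteins such as these are made in neutrophil precursors. Ltf was highest of all arrays with BH4 (274), but Ngp (84.9) and Mpo (66.5) were not.

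Of the cytokines, Il33, an alarmin stored in nuclei of fibroblasts and endothelium, was 169.9 with ABH4, 46.5 with NIL, 36.2 in the untreated allograft and 83.6 to 136 elsewhere, 3.65-fold higher with ABH4 and highest there of the 6 arrays. Ifng, the T and natural killer cell cytokine that drives macrophage activation, was 738 and 484 with 586 untreated. Il15 was 191 and 126. In the other direction Il21, a helper T cell cytokine, was at the floor on every array except NIL (63.4), and Il12a was 45.4 and 71.7. The list of 21 had 4 at least 1.5-fold higher and 2 lower, beside 4.32% and 5.42% of all genes, and a median of 0.

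Of 25 genes of chemokines and their receptors, 6 were at least 1.5-fold higher with ABH4 and 0 lower. The shares of all genes were 4.32% and 5.42%, and the median of the list was 0.14. Cxcl1, which draws neutrophils, was 206 with ABH4 and 86.0 with NIL, 2.39-fold, with 106 to 109.8 on the other allografts and 202 in the syngraft. Cxcl5, of the same family, was 136 and 65.2, and Ccl3, a macrophage and T cell product, was 572 and 292. The untreated allograft lay above NIL in 5 of the 6 and above ABH4 in 0. Members picked as higher with ABH4 favour this order, and over all 25 it lay above NIL in 13 and above ABH4 in 6. The list's median was 0.05 without rescaling.

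Of 10 complement genes 4 were at least 1.5-fold higher with ABH4 and 0 lower, beside 4.32% and 5.42% of all genes. The median of 0.14 was 0.08 without rescaling and 0.07 after quantile normalization. C1s1, the protease of the first component, was 544 and 260.1, 2.09-fold, and 201 to 437 on the other arrays. Its inhibitor Serping1 was 1909 and 1127, and C2 was 113 and 66.9. These are products of fibroblasts and macrophages as well as of liver.

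Genes induced by type I interferon were higher with ABH4 by small amounts in most members, whereas the result for interferon gamma depended on the scaling. Of 17 genes induced by type I interferon, 15 lay above 0 and 1 below. Past 1.5-fold were 3 higher with ABH4 and 0 lower, beside 4.32% and 5.42% of all genes. The median of 0.32 stayed between 0.21 and 0.35 under every alternative. The antiviral gene Rsad2 was 1127 with ABH4, 675 with NIL and 1707 in the untreated allograft, and its other 2 probe sets gave 0.81 and 0.92 on the log2 scale. Usp18, which limits interferon signalling, was 482 and 300.0, and Ifit1 was 957 and 616. The untreated allograft exceeded NIL in 17 of the 17 and ABH4 in 14. Of the 21 genes induced by interferon gamma, 1 was past 1.5-fold, the feedback inhibitor Socs1 at 410.1 and 252, and the median of 0.10 was 0.00 without rescaling. All genes above 4 times the common median had a median of 0.11 after rescaling and 0.00 without it.

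Genes of antigen presentation were close in class I and mostly lower with ABH4 in class II. The 8 MHC class I and peptide loading genes lay within 0.12 of 0 on the log2 scale, with Tap2 at 781 and 719.6 and H2-K1 at 6215 and 6524. Of 9 MHC class II genes, 8 were lower with ABH4, with a median of -0.27 that stayed between -0.39 and -0.22, although only H2-Oa, which tunes peptide loading in B cells, was past 1.5-fold at 68.6 and 128. The alpha chain H2-Aa was 5339 with ABH4, 7203 with NIL and 6252 untreated. The untreated allograft lay below NIL in 8 of the 9, and BH4 below NIL in 9.

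Lymphocyte markers were nearly level. None of 19 T cell genes was 1.5-fold apart and the median was 0.00, with Cd3e at 375 and 406 and Cd8a at 310.0 and 269, and with Ctla4 (219.7 and 168) and Cd6 (174 and 228) furthest. Of 20 cytotoxic genes, 2 were at least 1.5-fold higher with ABH4 and 0 lower, beside 4.32% and 5.42% of all genes. They were the transcription factor Eomes (82.9 and 47.0) and the natural killer receptor Ncr1 (120.3 and 76.6). The B cell list had a median of -0.28, with Ighm, the heavy chain of immunoglobulin M, at 173 and 262, but most of its genes lay below the common median, and over those above it the median was 0.04. In the untreated allograft Ighm was 179.7. Of other immunoglobulin genes, chosen after their values were seen, Jchain was 1840.2 and 1649 against 534, and Igk was 263 and 241 against 48.2.

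Macrophage genes were level as a list (median 0.04 over 24, or -0.06 without rescaling), with 15 above 0 and 9 below. At least 1.5-fold higher with ABH4 were 2, both markers of resident macrophages, and 0 were lower. The shares of all genes were 4.32% and 5.42%. The mannose receptor Mrc1 was 381 with ABH4 and 196 with NIL, 1.95-fold, with 226 in the untreated allograft and 372 to 522 elsewhere. Cd163, the haptoglobin-hemoglobin receptor, was 56.3 with ABH4 and at the floor with NIL and in the untreated allograft, at least 1.62-fold. Of 10 dendritic cell genes 3 were at least 1.5-fold lower with ABH4 and 0 higher, beside 5.42% and 4.32% of all genes. Flt3, at least 1.64-fold lower, was at the floor against 57.1, Cd80 was 45.6 against 71.4 and Xcr1 67.7 against 104. Flt3 and Cd80 lay below the common median on both arrays, where lower values prevailed with ABH4 over all genes. The other probe set of Cd80 gave -0.05 on the log2 scale.

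Over all 47 lists, 14 medians lay more than 0.1 above 0, 6 more than 0.1 below it, and 27 within 0.1.

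**Figure D5:**
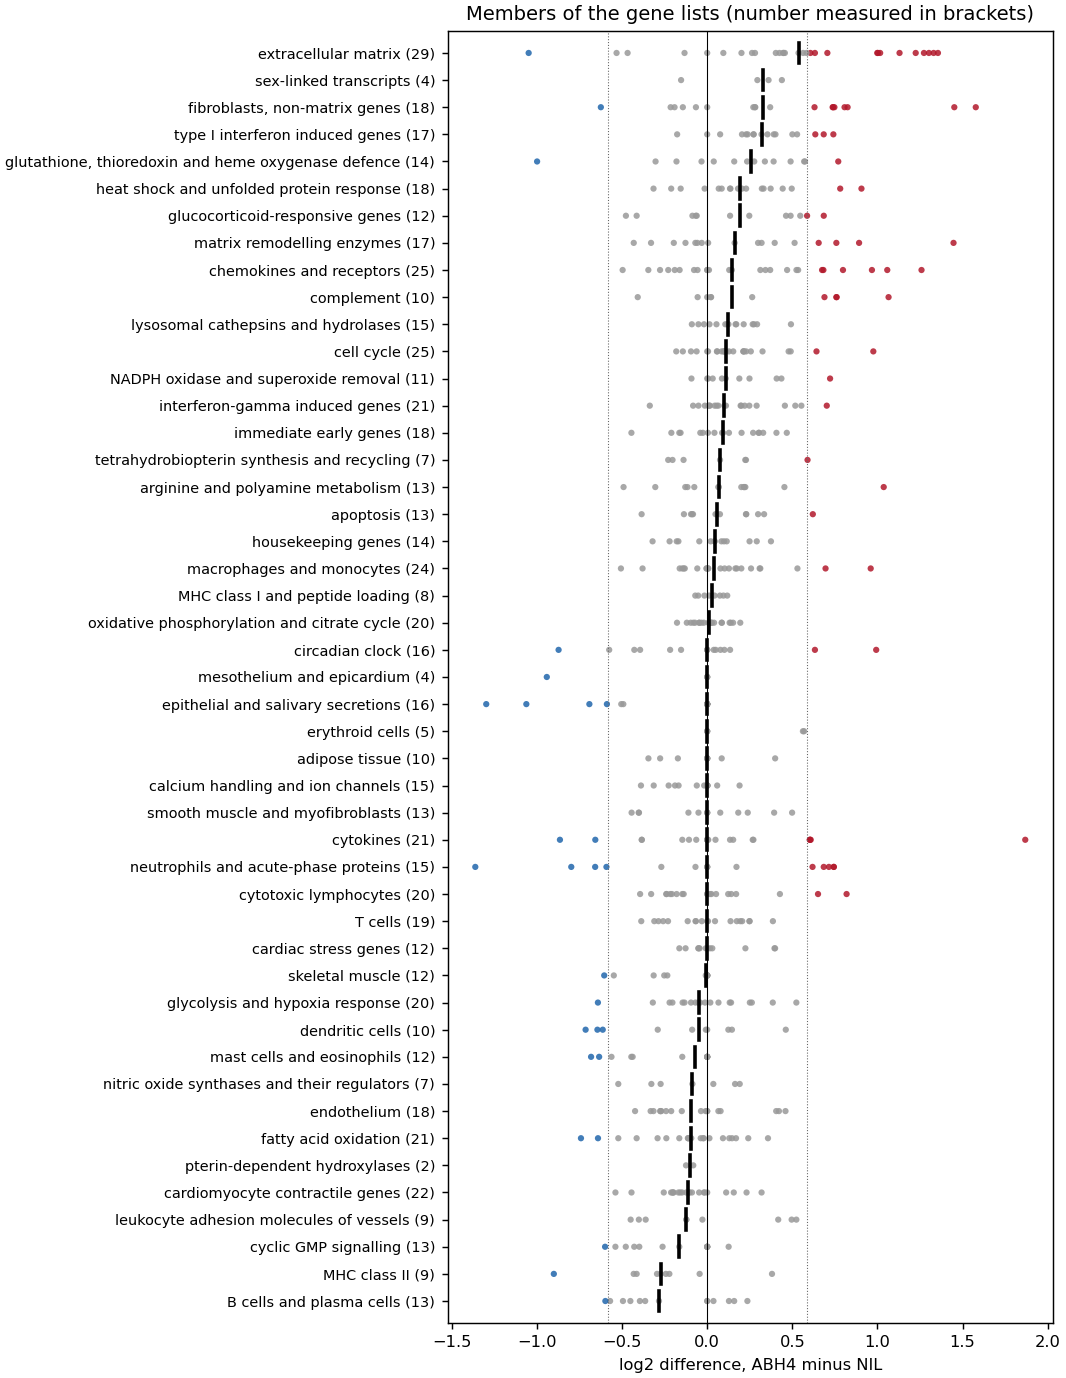
Log2 difference, ABH4 minus NIL, of every measured member of 47 gene lists, with the list median as a black bar, members at least 1.5-fold higher in red and lower in blue. The matrix, fibroblast and type I interferon lists have the highest medians (0.54, 0.33 and 0.32, with the 4 sex-linked transcripts at 0.33), and the B cell and MHC class II lists the lowest (-0.28 and -0.27).

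Heart muscle was close on both arrays. None of 22 contractile genes was 1.5-fold apart, 17 lay below 0, and the median was -0.11, or -0.21 without rescaling. Myom2, an M-band protein, was furthest at 1321 and 1919, and Myl4 was 63.2 and 86.1. The defining genes of heart muscle were present on both, Myh6 at 3161 and 3363 and Tnnt2 at 5673 and 5734. Smyd1, a methyltransferase of heart and skeletal muscle, was 803 with ABH4 and 259 with NIL, 3.10-fold, but 1 of its other 2 probe sets gave -0.09 and the other 1.47. Oxidative phosphorylation and citrate cycle genes, 20 in all, had a median of 0.01 and none past 1.5-fold. Of 21 genes of fatty acid oxidation 14 lay below 0 and 7 above, with a median of -0.09. At least 1.5-fold lower with ABH4 were 2, Acads (328 and 512) and Acot2 (49.2 and 82.2), and 0 were higher. The shares of all genes were 5.42% and 4.32%.

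Genes of oxidant defence, which draws on NADPH as the synthases do, leaned higher with ABH4 in the glutathione and thioredoxin list. That list had 10 of 14 members above 0 and a median of 0.26 that stayed between 0.16 and 0.26. Past 1.5-fold was 1 member in each direction, beside 4.32% of all genes higher and 5.42% lower. Srxn1, which repairs peroxiredoxins, was 1022 and 599.7, although 1 of its other 3 probe sets was of opposite sign. Slc7a11, the cystine importer, was 47.5 with ABH4 and 95.0 with NIL, and NIL was the highest of the 6 arrays. Cat, catalase, was 606 and 368, with NIL the lowest array. It was the only 1 past 1.5-fold of 11 genes of another list, NADPH oxidase and superoxide removal. The median of that list was 0.11, but 0.01 without rescaling and 0.03 after quantile normalization.

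For the other genes furthest apart toward ABH4, outside these lists, the brighter signal of the pair lay between 105 and 318, above the common median of 83.3. Zdhhc6, a palmitoyltransferase, was 198 with ABH4 and at the floor with NIL, at least 5.71-fold, while the other 4 arrays gave 158 to 257. NIL alone stood apart for this gene, and its other probe set gave 1.68 on the log2 scale. Spata5 was likewise at the floor with NIL alone, and 164 with ABH4, at least 4.73-fold, but its other probe set gave 0.44. Igkv15-103, an immunoglobulin kappa variable gene, was 141 with ABH4 and at the floor on the other 5 arrays. The palmitoyltransferase Zdhhc12 was 258 and 77.5, the splicing factor Luc7l3 318 and 109.9 (its other probe set 0.12 on the log2 scale), and the tumour suppressor Rassf1 230.4 and 79.9. Tnfrsf14, a receptor of lymphocytes, was at least 3.19-fold higher (111 against the floor) and Gpbp1l1 at least 3.01-fold (105 against the floor).

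The largest differences in the other direction included genes known mainly from tissues other than heart. Vmn1r44, a pheromone receptor, was 53.8 with ABH4 and 253 with NIL, 4.70-fold lower, with 87.2 to 221 on the other arrays. Lce1a1, of the cornified skin layer, was 36.9 and 133, Omp, of olfactory neurons, 39.5 and 108, Gdf9, of the oocyte, 51.8 and 157, and Rptn, of the epidermis, 39.1 and 103. Sox10, of glia and melanocytes, was 41.2 with ABH4 and 86.0 to 114 on the other 5, so that here ABH4 alone was low. Atp7b (50.6 and 143), Cd46 (43.1 and 116), Trim43a (46.7 and 149) and Fbxo28 (55.0 and 145) completed the 10. At the floor with ABH4 were Grhl2 (at least 4.14-fold lower, 144 with NIL), Creb3l3 (at least 4.01-fold, 139), Kel (at least 3.34-fold, 116), Rsph9 (at least 2.80-fold, 97.5) and Wfdc5 (at least 2.74-fold, 95.2).

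Genes past 2-fold were picked by the difference of this pair, so ABH4 or NIL tends to be the extreme array by that choice. Of the 132 genes at least 2-fold lower with ABH4, NIL lay above all other 5 arrays in 82 and ABH4 below all others in 52. The untreated allograft was nearer ABH4 in 101 of them. The untreated and ABH4 arrays had similar low ends, and 48 of the 132 were at or below the common median on the brighter array. The part of this in the count was not tested. Of the 89 genes at least 2-fold higher, ABH4 lay above all others in 35 and NIL below all others in 37, and the untreated allograft was nearer ABH4 in 42 and nearer NIL in 47. The brighter signal had a median of 92.0 among the lower genes and 132 among the higher ones. Of the lower genes 58 were at the floor on 1 array, and of the higher genes 28. Other probe sets could be compared for 29 of the higher genes, and 32 of 41 had the same sign, 12 of them at least 1.5-fold. They could be compared for 19 of the lower genes, and 15 of 21 had the same sign, 4 of them at least 1.5-fold.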

How the data were processed

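Total RNA of mouse cardiac grafts was hybridised to 6 one-colour Affymetrix arrays, 1 per group. The authors deposited a linear signal intensity for each of 22690 probe sets, already scaled, since every array had the same mean after trimming 2% from each end. The scanner software, summarisation and background correction are not given in the sources used here.

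Each array was rescaled to the mean of the 6 medians, which moved ABH4 by 0.05 and NIL by -0.05 on the log2 scale. Signals under the 30th percentile were set to it (34.8), and log2 was taken. A gene took its brightest probe set among the 20380 assigned to exactly 1 symbol in GEO's platform annotation. The 691 probe sets with several genes and the 1555 with none entered only the counts over 22626 probe sets. With 1 array per group there was no test, and the number of arrays limits the precision. Genes were named by a rule: for each direction, the 10 largest differences of genes measured above the floor on both arrays, above the common median on at least 1, and with no probe set of opposite sign, the 5 largest bounds in each direction, every member of the nitric oxide, pterin, arginine and cyclic GMP lists, and in other lists up to 3 members past 1.5-fold in each direction, or the 2 furthest. Col1a1, Col3a1, Col5a2, Fn1, Thbs1, Lum, Postn, Smyd1, Cd3e, Cd8a, H2-Aa, H2-K1, Igk, Jchain, Myh6 and Tnnt2 were added after their values were seen. The comparison, the 47 lists (687 of 773 entries measured) and the rule were chosen with earlier results of these data known. Alternatives were quantile normalization, no rescaling of the deposited values, floors at the 10th and 50th percentile, the mean over probe sets and filters on low values. The counting was tested on simulated data. Python 3.11.15 with pandas 2.3.3 and numpy 2.4.6 was used.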

Additional observations from a re-analysis of the deposited data

How the results depend on the processing

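With a single array per group no difference could be set against the spread between grafts, and no paired analysis was possible because each group has 1 array. The counts followed the floor. With it at the 10th percentile 478 genes were at least 2-fold higher with ABH4 and 762 lower (1127 and 1405 probe sets), and at the 50th percentile 37 and 10 (83 and 19 probe sets). With features above the common median on at least 1 array, a filter chosen after seeing the data, 84 genes and 135 probe sets were lower. The other alternatives moved neither the counts over all genes nor those over all probe sets by more than 1.5 times. Among genes above 4 times the median, the 16 higher and 3 lower became 9 and 4 without rescaling and 9 and 5 after quantile normalization. The added filter turned the sign of 2 list medians, B cells and plasma cells (0.037, against -0.28) and leukocyte adhesion molecules of vessels (0.15, against -0.12), since it tests fewer genes. None of the alternatives turned the sign of the other 18 of 20 lists with a median at least 0.1 from 0, or of the 95 named genes at least 1.5-fold apart. Signal over background limits the dim genes: 58 of the 132 lower genes were at the floor on 1 of the arrays.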

Other observations

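Genes of the circadian clock, whose levels depend on the hour of collection, held members past 1.5-fold in both directions, 2 of 16 higher with ABH4 and 1 lower, beside 4.32% and 5.42% of all genes, and a median of 0. Nr1d1, a repressor of the clock, was 125 with ABH4, 228 with NIL, 234 in the untreated allograft and 399 in the syngraft. Nfil3, another transcription factor linked to the clock, was 148 with ABH4 and 74.3 with NIL, and Cry1 was 53.9 with ABH4 and at the floor with NIL. The hour of collection is not given in the sources used here.

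Of 18 genes of heat shock and of the unfolded protein response, 2 were at least 1.5-fold higher with ABH4 and 0 lower, beside the same shares of all genes, and the median was 0.19 (0.09 without rescaling). Hspa1a was 208 and 111, and Hspa1b was 680.1 and 396, with its other 2 probe sets at 0.67 and 1.04 on the log2 scale. Of 25 cell cycle genes 2 were past 1.5-fold toward ABH4 and 0 toward NIL, beside 4.32% and 5.42% of all genes. These were the spindle checkpoint kinase Bub1b (108 and 54.8) and the cyclin Ccnb2 (178 and 114). Of the 16 epithelial and salivary genes 10 were at the floor on both arrays. At least 1.5-fold lower with ABH4 were 4, beside 5.42% of all genes, led by Wfdc18 (103 and 252) and the keratin Krt18 (102 and 212). Both were highest of all arrays with BH4, at 1230 and 263.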
